A study of Mus musculus with 9 samples.

Results

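The genes described are the mouse receptors for GABA, glycine, glutamate and acetylcholine that act as ligand-gated channels, with the metabotropic receptors for glutamate and GABA. They were taken by symbol, as the subunit genes of the GABA-A, GABA-B, glycine, AMPA, kainate, NMDA, delta, metabotropic glutamate and nicotinic acetylcholine receptors. The rule found 68 genes among 24100 gene IDs and used no measured value. The set itself was chosen with earlier results of these data known.

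Messenger RNA came from mouse embryonic stem cells (mESCs) after their differentiation into what the labels call neural cells, with 3 libraries in each of 3 groups. The count headers of all libraries share a further tag that may give the days of differentiation. Its meaning was not settled, so the age of the cultures, which may be only days, is not known here. All groups carried a stably expressed PiggyBac transgene, a DNA transposon insert, for histone H4 with a 3HA tag. H4K91Q cells expressed H4 with lysine 91 replaced by glutamine, H4K91R cells H4 with that lysine replaced by arginine, and H4WT cells tagged H4 without either change. Glutamine, which is uncharged, is a common stand-in for acetylated lysine, whereas arginine is charged as lysine is. The study asked which genes differ in expression when such cells carry a mutant H4. The labels give neither the promoter of the transgene, nor the level of tagged against endogenous H4, nor whether the libraries of a group are separate lines or differentiations. The p-values thus measure only the spread between these libraries, which may be technical.

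Fast synaptic signalling runs through receptors that are themselves ion channels. GABA-A and glycine receptors pass chloride and are the inhibitory channels of the mature nervous system, whereas AMPA, kainate and NMDA receptors pass cations in response to glutamate. Nicotinic receptors are cation channels opened by acetylcholine, in neurons and at the neuromuscular junction. Metabotropic glutamate receptors and the GABA-B receptor signal through G proteins. Most of these receptors are assembled from several subunits, so their properties depend on which subunit genes a cell expresses.

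Total counts ran from 8970553 to 28887501 per library, with a median of 16364686. Levels are given as CPM, the count relative to the size of the library after scaling by the trimmed mean of M-values (TMM). A count of 0 allows up to 3 counts, or 0.111 to 0.367 CPM depending on the library, for counting error only. Of the 68 receptor genes, 41 were among the 14761 genes with enough counts to be tested. All 21 pan-neuronal markers had enough counts to test, which is only a weak check of the neural label. Their summed level was 1318 to 1447 CPM in H4K91Q, 1635 to 2026 CPM in H4K91R and 592 to 710 CPM in H4WT. Endoderm and epithelium markers summed to 1204 to 1349 CPM in H4K91Q, 1202 to 1323 CPM in H4K91R and 1741 to 1892 CPM in H4WT. Smooth muscle and fibroblast markers, given below, had higher sums in every group. The share of neural cells was not measured. In bulk RNA, fewer cells of a type and less RNA per cell cannot be told apart.

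The promoters of 6 receptor genes are shown to set genes that rose beside genes that did not. Gabbr1, Grin1, Chrnb2 and Chrna3 were higher in both mutants, Glrb passed in neither mutant, and Gabra6 had no count in any library. Each is the 250 bases before the annotated start, 5′ to 3′ on the strand of the gene, from RefSeq on GRCm38.p6, with every CpG in capitals. None of these bases lies in an annotated exon.
Gabbr1, chr17:37045716-37045965, plus strand: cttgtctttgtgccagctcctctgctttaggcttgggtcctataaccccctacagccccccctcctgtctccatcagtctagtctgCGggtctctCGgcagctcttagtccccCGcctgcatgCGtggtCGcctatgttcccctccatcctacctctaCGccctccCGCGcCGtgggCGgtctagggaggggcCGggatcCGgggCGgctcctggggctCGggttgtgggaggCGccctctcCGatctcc
Grin1, chr2:25319188-25319437, minus strand: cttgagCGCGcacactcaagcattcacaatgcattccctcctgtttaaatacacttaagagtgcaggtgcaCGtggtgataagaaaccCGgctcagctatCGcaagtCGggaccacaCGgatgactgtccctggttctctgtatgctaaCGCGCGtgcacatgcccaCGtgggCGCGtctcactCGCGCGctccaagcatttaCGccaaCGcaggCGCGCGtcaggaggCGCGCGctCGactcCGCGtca
Chrnb2, chr3:89764633-89764882, minus strand: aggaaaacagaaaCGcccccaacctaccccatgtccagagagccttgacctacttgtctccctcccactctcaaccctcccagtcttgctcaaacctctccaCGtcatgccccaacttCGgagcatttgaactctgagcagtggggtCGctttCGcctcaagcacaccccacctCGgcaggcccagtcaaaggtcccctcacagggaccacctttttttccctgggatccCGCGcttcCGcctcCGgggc
Chrna3, chr9:55026563-55026812, minus strand: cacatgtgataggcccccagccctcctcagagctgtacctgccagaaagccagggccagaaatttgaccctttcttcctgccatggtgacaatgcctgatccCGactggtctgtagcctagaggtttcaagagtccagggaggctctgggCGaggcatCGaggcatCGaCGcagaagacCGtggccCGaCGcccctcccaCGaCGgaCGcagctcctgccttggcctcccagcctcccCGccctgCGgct
Glrb, chr3:80913661-80913910, minus strand: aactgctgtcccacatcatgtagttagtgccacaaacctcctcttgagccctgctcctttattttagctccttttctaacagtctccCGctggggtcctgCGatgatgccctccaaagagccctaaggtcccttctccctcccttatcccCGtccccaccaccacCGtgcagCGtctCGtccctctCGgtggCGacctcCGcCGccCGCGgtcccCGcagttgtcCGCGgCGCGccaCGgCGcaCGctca
Gabra6, chr11:42321073-42321322, minus strand: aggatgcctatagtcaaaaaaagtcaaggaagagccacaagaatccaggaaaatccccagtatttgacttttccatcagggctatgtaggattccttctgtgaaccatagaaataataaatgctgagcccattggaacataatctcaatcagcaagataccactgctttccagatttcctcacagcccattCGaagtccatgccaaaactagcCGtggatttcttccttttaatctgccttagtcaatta
The Grin1 window held 27 CpGs, with an observed-to-expected CpG ratio of 1.26 given its base content. The Gabbr1, Chrnb2, Chrna3 and Glrb windows held 16, 10, 13 and 20 CpGs. The Gabra6 window held 2 CpGs, with a ratio of 0.198. Glrb thus had more CpGs than Gabbr1, Chrnb2 and Chrna3.

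Such windows were at hand for 48 of the 68 receptor genes, with the median taken where a gene had several. The CpG ratio had a median of 0.607 in 29 receptor genes with enough counts to test and of 0.214 in 19 with too few. The same split over all genes with a window gave medians of 0.709 in 11629 tested genes and 0.192 in 6409 untested genes, so both sets of genes showed the same direction. The 21 receptor genes with a window that rose in H4K91R had a median ratio of 0.554. A search on both strands covered 3 motifs, none of which contains another: TTCAGCAC and GGACAGCG, from the left and right parts of the RE1 element bound by the neuronal repressor REST, and the GC box GGGCGG. TTCAGCAC occurred in Glra2 and Grm2, 4.17% of the 48 receptor genes, and in 1.08% of all 18038 genes with a window. GGACAGCG occurred in Gria2, 2.08% of the receptor genes, and in 1.43% of all genes. The GC box occurred in 25 receptor genes (52.08%) and in 46.09% of all genes.

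**Figure D1:**
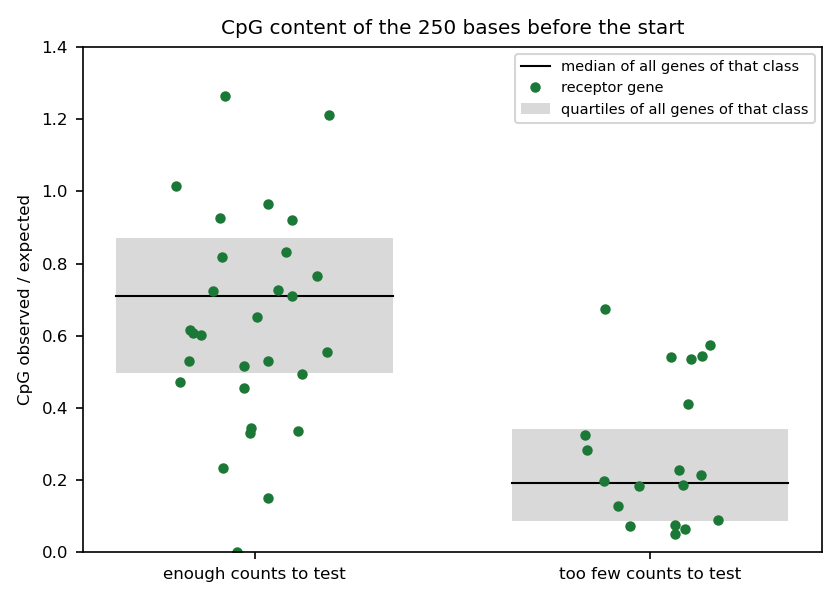
CpG observed-to-expected ratio in the 250 bases before the start (vertical axis, no unit) for receptor genes with enough counts to test (29 genes) and with too few (19 genes). Points are receptor genes; the quartiles of all genes of the same class are drawn with them, with medians of 0.709 for tested and 0.192 for untested genes.

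In both mutants most receptor genes that could be tested were higher than in H4WT. In H4K91Q, 23 of 41 rose and 3 fell, and in H4K91R, 29 rose and 4 fell (edgeR quasi-likelihood test, Benjamini-Hochberg adjusted p below 0.05 over all tested genes). Of all 14761 tested genes, 22.5% rose and 23.8% fell in H4K91Q (46.3% in either direction), and 20.9% rose and 25.1% fell in H4K91R (46.0% in either direction). The median log2 change of the 41 receptor genes was 0.753 in H4K91Q and 1.25 in H4K91R, beside 0.0127 and -0.0303 over all tested genes. A gene could pass the filter on low counts through its mutant libraries alone, as H4WT need not reach it. With no filter, 66 receptor genes had medians of 0.677 in H4K91Q and 0.913 in H4K91R, beside 0.0257 and -0.00258 over all genes. Of these 66, 25 rose and 3 fell in H4K91Q, and 30 rose and 4 fell in H4K91R. Over all 20103 genes in that fit, 3349 rose and 3446 fell in H4K91Q, and 3065 rose and 3685 fell in H4K91R. Both mutants were set against the same H4WT libraries, and the 23 genes that rose and the 3 that fell in H4K91Q did so in H4K91R too.

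Changes of at least 2-fold were called upward for 14 receptor genes and downward for 3 in H4K91Q, beside 8.38% and 4.17% of all tested genes. In H4K91R these were 24 and 2 receptor genes, beside 9.18% and 4.59%. The libraries of mutant and H4WT did not overlap for 26 receptor genes higher and 4 lower in H4K91Q (27.4% and 27.7% of all tested genes), and for 30 higher and 4 lower in H4K91R (25% and 30.1%). The summed level of all receptor genes was 326 to 361 CPM in H4K91Q, 425 to 457 CPM in H4K91R and 290 to 328 CPM in H4WT. Scaling by library size, which moved the median of all genes by 0.168 in H4K91Q and 0.183 in H4K91R, gave 26 receptor genes higher and 3 lower in H4K91Q and 30 higher and 3 lower in H4K91R. Over all genes that scaling made 72.9% of the calls in H4K91Q and 71.4% of those in H4K91R upward ones, against 48.5% and 45.5% with TMM. Upper quartile scaling, which moved the median by 0.12 and 0.111, made them 66.3% and 61.8%.

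Neuronal markers moved with the receptor genes. Of the 21 pan-neuronal markers, 18 rose and 1 fell in H4K91Q and 19 rose and 0 fell in H4K91R, with median log2 changes of 1.52 and 1.95. Map2, a microtubule-binding protein of dendrites, averaged 154 CPM in H4K91Q, 221 CPM in H4K91R and 43.4 CPM in H4WT. Of 14 tested markers of neural progenitors, 10 rose and 2 fell in H4K91Q and 11 rose and 1 fell in H4K91R, although their sum, led by Vim, which fell in both mutants, was 2476 to 2582 CPM in H4K91Q, 2627 to 2696 CPM in H4K91R and 2715 to 2886 CPM in H4WT. Smooth muscle and fibroblast markers mostly went the other way. Of 11, 1 rose and 7 fell in H4K91Q, and 2 rose and 7 fell in H4K91R. Their sum was 5540 to 6094 CPM in H4K91Q, 5401 to 6701 CPM in H4K91R and 9170 to 9369 CPM in H4WT. Of 10 early-response and stress genes, listed as signs of RNA quality, 2 rose and 7 fell in H4K91Q and 1 rose and 7 fell in H4K91R. The sum of these genes was 655 to 712 CPM in H4K91Q, 589 to 691 CPM in H4K91R and 774 to 896 CPM in H4WT. The part of the cell mix and of RNA quality in the receptor changes was not tested.

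Other marker lists gave smaller counts. Of 9 tested sensory and autonomic markers, 5 rose and 0 fell in H4K91Q and 5 rose and 1 fell in H4K91R. Of 6 oligodendrocyte lineage markers, 4 rose and 1 fell in each mutant. Of 5 astrocyte markers, 2 rose and 0 fell in H4K91Q and 2 rose and 1 fell in H4K91R. Of 9 endoderm and epithelium markers, 0 rose and 6 fell in H4K91Q and 0 rose and 5 fell in H4K91R, and of 7 cardiac markers, 0 rose and 3 fell in H4K91Q and 0 rose and 2 fell in H4K91R.

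**Figure D2:**
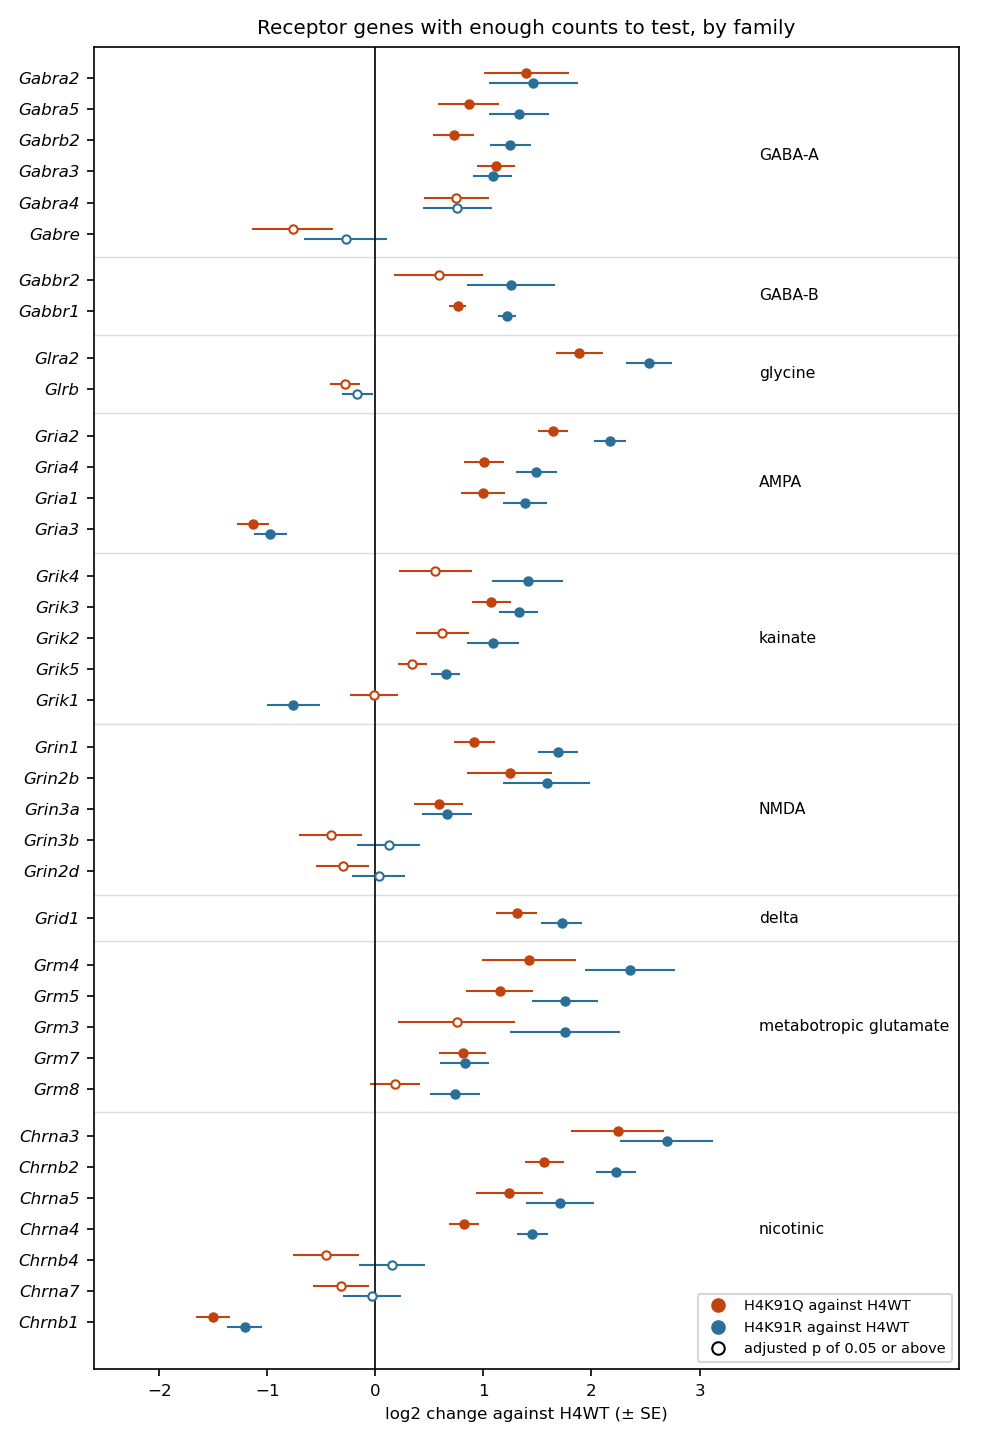
Log2 change against H4WT with its SE of 37 tested receptor genes, grouped by family, in H4K91Q and H4K91R. Filled points passed an adjusted p below 0.05; Gria3 and Chrnb1 passed below 0 in both mutants, and Grik1 passed below 0 in H4K91R.

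AMPA receptors carry most fast excitation. Their pore is a tetramer of the subunits encoded by Gria1 to Gria4. Gria3 had the highest level of all 68 receptor genes in H4WT, both as CPM and as CPM per kilobase of exon. It stood at 56.7, 47.6 and 46.9 CPM in the H4K91Q libraries, 69.6, 56.5 and 42.2 CPM in the H4K91R libraries and 114, 96.3 and 123 CPM in the H4WT libraries. Every mutant library lay below every H4WT library. On the log2 scale Gria3 fell by 1.13 ± 0.15 in H4K91Q and by 0.97 ± 0.15 in H4K91R (SE, n = 3 libraries per group here and below; edgeR adjusted p = 4.82e-05 and 0.000165).

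The other AMPA subunit genes rose. Gria2 encodes the subunit that, after editing of its RNA, makes AMPA receptors nearly impermeable to calcium. It stood at 17.8, 19.1 and 17.6 CPM in the H4K91Q libraries, 21.8, 28.1 and 29.2 CPM in the H4K91R libraries and 4.81, 5.93 and 6.61 CPM in the H4WT libraries. The 3 groups did not overlap, and the log2 change was 1.64 ± 0.14 in H4K91Q and 2.17 ± 0.14 in H4K91R (edgeR adjusted p = 2.06e-06 and 2.09e-07). Gria1 and Gria4 rose by 1.0 ± 0.20 and 1.0 ± 0.19 in H4K91Q and by 1.38 ± 0.20 and 1.49 ± 0.19 in H4K91R. The summed AMPA level, in which Gria3 dominates, was 72.2 to 82.5 CPM in H4K91Q, 83 to 102 CPM in H4K91R and 106 to 134 CPM in H4WT.

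Per exonic kilobase, the make-up of the AMPA family differed between the mutants and H4WT. Gria3 held 74.8% of the family's level in H4K91Q (72.3% to 77.7% over the libraries), 69.5% in H4K91R (62.4% to 77%) and 94.3% in H4WT (93.3% to 95.2%). Gria2 held 14.1% in H4K91Q, 17.6% in H4K91R and 2.56% in H4WT, and with coding length in place of exonic length 23.9% in H4K91Q, 28.8% in H4K91R and 4.83% in H4WT. The Gria3 shares of H4WT libraries did not overlap with those of either mutant.

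**Figure D3:**
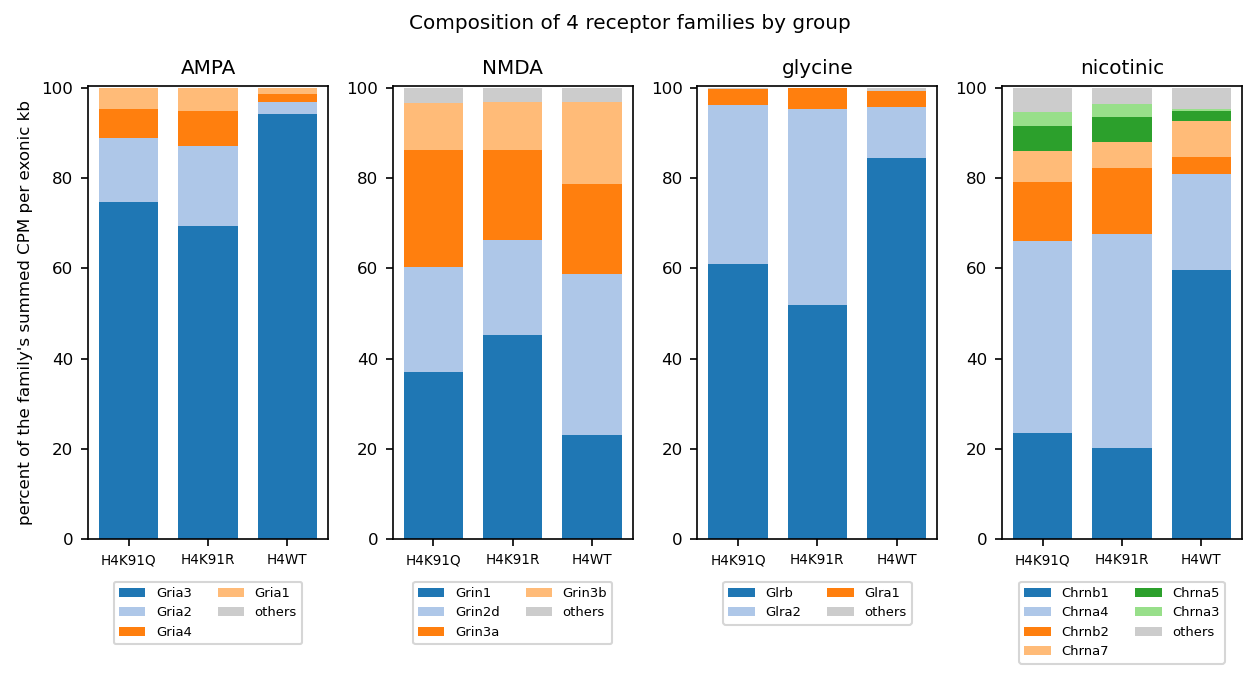
Share of each subunit gene in the summed level of its family (vertical axis, percent of CPM per exonic kilobase, mean of 3 libraries) for 4 families, with H4K91Q, H4K91R and H4WT from left to right in each. Gria3 and Chrnb1 hold smaller shares in the mutants than in H4WT, and Grin1 and Glra2 larger ones.

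NMDA receptors open on binding of glutamate and glycine or D-serine together with depolarisation, and every one contains the subunit encoded by Grin1. Grin1 stood at 4.16, 4.33 and 4.1 CPM in the H4K91Q libraries, 6.39, 6.76 and 8.57 CPM in the H4K91R libraries and 1.8, 2.48 and 2.08 CPM in the H4WT libraries. The groups did not overlap, with H4K91R highest and H4WT lowest. It rose by 0.92 ± 0.19 in H4K91Q and by 1.69 ± 0.19 in H4K91R (edgeR adjusted p = 0.0015 and 9.75e-06). Exons of the antisense gene Grin1os cover 29.9% of the exonic length of Grin1, and reads of the 2 genes cannot be told apart if the counting ignored strand.

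The GluN2 subunits bind glutamate and set the kinetics of the channel. Grin2b, the main GluN2 gene of the embryonic brain, stood at 0.986, 1.49 and 1.35 CPM in the H4K91Q libraries, 1.09, 1.49 and 2.46 CPM in the H4K91R libraries and 0.721, 0.519 and 0.367 CPM in the H4WT libraries. All mutant libraries were above those of H4WT. It rose by 1.24 ± 0.39 in H4K91Q, a call lost without H4WT replicate 2, H4WT replicate 3 or H4K91Q replicate 2 (adjusted p up to 0.0965), and by 1.59 ± 0.40 in H4K91R. Grin2d had a higher level and passed no test, at 3.26, 3.19 and 5.04 CPM in the H4K91Q libraries, 5.7, 3.15 and 5.42 CPM in the H4K91R libraries and 3.97, 4.89 and 5.02 CPM in the H4WT libraries. Its groups overlapped, and the log2 change was -0.30 ± 0.24 in H4K91Q and 0.03 ± 0.25 in H4K91R (edgeR adjusted p = 0.328 and 0.932), with a sign in H4K91R that depended on the setting.

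The GluN3 subunits bind glycine and lower calcium permeability. Grin3a rose by 0.59 ± 0.22 in H4K91Q (edgeR adjusted p = 0.0478) and by 0.67 ± 0.23 in H4K91R (edgeR adjusted p = 0.0318). The H4K91Q call was lost with limma-voom, in the fit of the compared groups only, and without H4WT replicate 1, H4WT replicate 3, H4K91R replicate 1, H4K91R replicate 2, H4K91R replicate 3 or H4K91Q replicate 3 (adjusted p up to 0.182). The H4K91R call was lost without H4WT replicate 1, H4WT replicate 3, H4K91R replicate 2 or H4K91R replicate 3 (adjusted p up to 0.0944). Grin3b had 0.729, 0.947 and 1.05 CPM in the H4K91Q libraries, 1.5, 1.26 and 1.08 CPM in the H4K91R libraries and 1.08, 1.07 and 1.59 CPM in the H4WT libraries. Its H4K91Q libraries lay just under those of H4WT and its H4K91R libraries overlapped with them, and it passed in neither mutant, at -0.41 ± 0.29 in H4K91Q and 0.12 ± 0.29 in H4K91R. Per exonic kilobase Grin1 held 37% in H4K91Q, 45.3% in H4K91R and 23.1% in H4WT of the NMDA level, and Grin2d 23.4% in H4K91Q, 21% in H4K91R and 35.8% in H4WT.

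Kainate receptors combine the subunits from Grik1 to Grik3 with those from Grik4 or Grik5, which bind kainate with high affinity but form no channel of their own. Grik5, the most abundant of them, stood at 39.6, 44.9 and 52.9 CPM in the H4K91Q libraries, 50.1, 59.7 and 60.5 CPM in the H4K91R libraries and 28.1, 39.5 and 39.4 CPM in the H4WT libraries. Its mutant libraries all lay above the H4WT libraries, although the lowest H4K91Q library was only just above the highest H4WT library. It rose in H4K91R by 0.65 ± 0.14 (edgeR adjusted p = 0.00164) and was at 0.34 ± 0.14 in H4K91Q (edgeR adjusted p = 0.053). In H4K91Q it passed in 9 of 19 alternatives. With the replicate number as a block, one of these, the H4K91Q value was 0.36 (edgeR adjusted p = 0.00494).

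Grik3 stood at 13.3, 14.9 and 20.5 CPM in the H4K91Q libraries, 17.7, 21.2 and 19 CPM in the H4K91R libraries and 5.65, 8.56 and 8.2 CPM in the H4WT libraries. All mutant libraries were above all H4WT libraries, and it rose by 1.07 ± 0.18 in H4K91Q and 1.33 ± 0.18 in H4K91R. Grik2 rose in H4K91R by 1.09 ± 0.24 and was at 0.62 ± 0.24 in H4K91Q (edgeR adjusted p = 0.051). In H4K91Q it passed in 12 of 19 alternatives, among them the replicate block, at 0.59 (edgeR adjusted p = 0.0304). Grik4 rose in H4K91R by 1.41 ± 0.33 and did not pass in H4K91Q, at 0.55 ± 0.34.

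Grik1 was the one kainate gene called lower in a mutant. It stood at 5.15, 7.87 and 6.74 CPM in the H4K91Q libraries, 2.99, 3.93 and 5.12 CPM in the H4K91R libraries and 5.17, 8.15 and 5.63 CPM in the H4WT libraries. H4K91Q overlapped with H4WT, whereas the highest H4K91R library lay just under the lowest library of both other groups. The log2 change was -0.01 ± 0.22 in H4K91Q, with a sign that depended on the setting, and -0.76 ± 0.25 in H4K91R (edgeR adjusted p = 0.964 and 0.0223). The H4K91R call was lost with library size scaling (-0.58, adjusted p = 0.0718), with upper quartile scaling (-0.65, adjusted p = 0.0504) and, in the same edgeR test, without H4WT replicate 2, H4K91R replicate 1 or H4K91R replicate 2 (adjusted p up to 0.202).

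The delta receptors resemble glutamate channels in sequence and act mainly as synaptic organisers that bind cerebellins. Grid1 stood at 3.95, 3.79 and 4.16 CPM in the H4K91Q libraries, 5.75, 5.51 and 4.43 CPM in the H4K91R libraries and 1.8, 1.56 and 1.47 CPM in the H4WT libraries. It rose by 1.31 ± 0.19 in H4K91Q and 1.72 ± 0.19 in H4K91R (edgeR adjusted p = 0.000112 and 1.04e-05), with no overlap between the mutants and H4WT.

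Metabotropic glutamate receptors fall into group I, to which Grm5 belongs and which acts through phospholipase C, and groups II (Grm2, Grm3) and III (Grm4, Grm6, Grm7, Grm8), which lower cyclic AMP. All 5 genes that could be tested rose in H4K91R, and 3 of them, Grm4, Grm5 and Grm7, rose in H4K91Q. Grm5 stood at 2.06, 2.09 and 1.76 CPM in the H4K91Q libraries, 2.36, 3.46 and 3.35 CPM in the H4K91R libraries and 0.361, 1.11 and 0.857 CPM in the H4WT libraries. The groups did not overlap, and the log2 change was 1.15 ± 0.31 in H4K91Q and 1.76 ± 0.31 in H4K91R (edgeR adjusted p = 0.0082 and 0.00043).

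Grm4, a presynaptic receptor, had 1.54, 1.05 and 0.937 CPM in the H4K91Q libraries, 1.78, 2.91 and 2.26 CPM in the H4K91R libraries and 0.24, 0.63 and 0.122 CPM in the H4WT libraries. The groups did not overlap here either. The changes were 1.42 ± 0.43 in H4K91Q, a call lost without H4K91Q replicate 1 (adjusted p = 0.0731), and 2.36 ± 0.42 in H4K91R. H4WT replicates 1 and 3 held only 2 and 1 counts of Grm4, so the size of the change is uncertain. Grm7, also presynaptic, had the highest level per exonic kilobase of the family over the 9 libraries.

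Grm7 stood at 2.74, 2.89 and 2.87 CPM in the H4K91Q libraries, 3.22, 3.07 and 2.17 CPM in the H4K91R libraries and 1.68, 1.48 and 1.84 CPM in the H4WT libraries, with all mutant libraries above those of H4WT. It rose by 0.81 ± 0.22 in H4K91Q, a call lost without H4WT replicate 2 (adjusted p = 0.0646), and by 0.83 ± 0.23 in H4K91R, a call lost without H4WT replicate 2 (adjusted p = 0.0621). Grm8 had 1.67, 1.79 and 1.76 CPM in the H4K91Q libraries, 2.19, 3.07 and 2.46 CPM in the H4K91R libraries and 1.68, 1.37 and 1.71 CPM in the H4WT libraries. It overlapped with H4WT in H4K91Q, at 0.19 ± 0.23 (edgeR adjusted p = 0.54), and rose in H4K91R by 0.74 ± 0.23 (edgeR adjusted p = 0.0196). The H4K91R call of Grm8 was lost with DESeq2 (adjusted p = 0.0581) and without H4WT replicate 2 or H4K91R replicate 2 (adjusted p up to 0.125). Grm3 rose in H4K91R by 1.75 ± 0.51, a call lost without H4WT replicate 2 or H4K91R replicate 1 (adjusted p up to 0.0912), and did not pass in H4K91Q, at 0.75 ± 0.54.

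GABA-A receptors are pentamers, mostly of alpha, beta and gamma subunits. Of 9 testable GABA-A genes, 6 rose and 1 fell in each mutant. Gabrb2, which encodes a beta subunit, had 5.62, 5.23 and 6.33 CPM in the H4K91Q libraries, 8.46, 8.81 and 7.29 CPM in the H4K91R libraries and 2.4, 3.44 and 4.53 CPM in the H4WT libraries. It rose by 0.72 ± 0.19 in H4K91Q and 1.25 ± 0.19 in H4K91R, and no 2 groups overlapped. Of the 19 GABA-A genes, 10 had too few counts to test.

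Alpha subunits shape the response to benzodiazepines and change during brain development. Gabra2, Gabra3 and Gabra5, alpha genes already active in the embryonic brain, rose in both mutants. Gabra2 stood at 0.901, 2.04 and 1.05 CPM in the H4K91Q libraries, 1.38, 1.42 and 1.38 CPM in the H4K91R libraries and 0.361, 0.556 and 0.49 CPM in the H4WT libraries. Its mutant libraries were all above those of H4WT, with changes of 1.4 ± 0.39 in H4K91Q, a call lost without H4K91Q replicate 2 (adjusted p = 0.0517), and 1.46 ± 0.41 in H4K91R. Gabra3 stood at 4.76, 4.58 and 4.45 CPM in the H4K91Q libraries, 4.66, 3.93 and 4.92 CPM in the H4K91R libraries and 2.4, 2.11 and 1.84 CPM in the H4WT libraries, again without overlap between the mutants and H4WT, and rose by 1.12 ± 0.18 in H4K91Q and 1.08 ± 0.18 in H4K91R. Gabra5 rose by 0.86 ± 0.28 in H4K91Q, a call lost without H4WT replicate 2 or H4K91Q replicate 2 (adjusted p up to 0.172), and by 1.33 ± 0.28 in H4K91R.

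Gabra4 and Gabre passed in neither mutant, at 0.75 ± 0.30 and -0.76 ± 0.38 in H4K91Q and 0.76 ± 0.32 and -0.27 ± 0.38 in H4K91R. Gabra4 passed as higher in both mutants with library size scaling, upper quartile scaling and without H4WT replicate 3, at 0.95 in H4K91Q and 0.97 in H4K91R in the last (edgeR adjusted p = 0.0384 and 0.0416). Gabre passed as lower in H4K91Q without H4WT replicate 2, at -1.2 (edgeR adjusted p = 0.0283).

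The GABA-B receptor is a dimer of a ligand-binding subunit, from Gabbr1, and a subunit that couples to the G protein, from Gabbr2. Gabbr1 stood at 48.6, 52.9 and 56 CPM in the H4K91Q libraries, 67.1, 75.3 and 73.6 CPM in the H4K91R libraries and 30.8, 30.9 and 31 CPM in the H4WT libraries. The groups did not overlap, and the H4WT libraries lay very close together. It rose by 0.76 ± 0.08 in H4K91Q and 1.22 ± 0.08 in H4K91R (edgeR adjusted p = 7.36e-06 and 1.92e-07).

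Gabbr2 was far lower than its partner, with 1.2, 0.747 and 1.99 CPM in the H4K91Q libraries, 1.61, 1.97 and 2.76 CPM in the H4K91R libraries and 0.601, 1.11 and 0.49 CPM in the H4WT libraries. It overlapped with H4WT in H4K91Q, at 0.59 ± 0.41. In H4K91R it rose by 1.25 ± 0.41 (edgeR adjusted p = 0.0233), a call lost without H4WT replicate 1, H4WT replicate 3 or H4K91R replicate 3 (adjusted p up to 0.0773). Gabbr1 held 97.2% in H4K91Q, 96.8% in H4K91R and 97.3% in H4WT of the level of the pair per exonic kilobase.

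Glycine receptors pair alpha subunits with the beta subunit from Glrb, and alpha-2, from Glra2, is the embryonic alpha subunit. Glra2 stood at 4.63, 5.33 and 4.22 CPM in the H4K91Q libraries, 6.68, 8.49 and 7.09 CPM in the H4K91R libraries and 0.962, 1.22 and 1.71 CPM in the H4WT libraries. The groups did not overlap, and the changes were 1.89 ± 0.22 in H4K91Q and 2.53 ± 0.22 in H4K91R (edgeR adjusted p = 1.68e-05 and 1.16e-06). Glrb had 7.59, 8.62 and 8.55 CPM in the H4K91Q libraries, 8.34, 9.2 and 9.26 CPM in the H4K91R libraries and 7.82, 11.1 and 10.4 CPM in the H4WT libraries. Its groups overlapped, at -0.28 ± 0.14 in H4K91Q and -0.17 ± 0.14 in H4K91R, and without H4WT replicate 1 the lower level in H4K91Q passed, at -0.40 (edgeR adjusted p = 0.0266). Glra2 held 35.3% in H4K91Q, 43.5% in H4K91R and 11.3% in H4WT of the family's level per exonic kilobase.

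**Figure D4:**
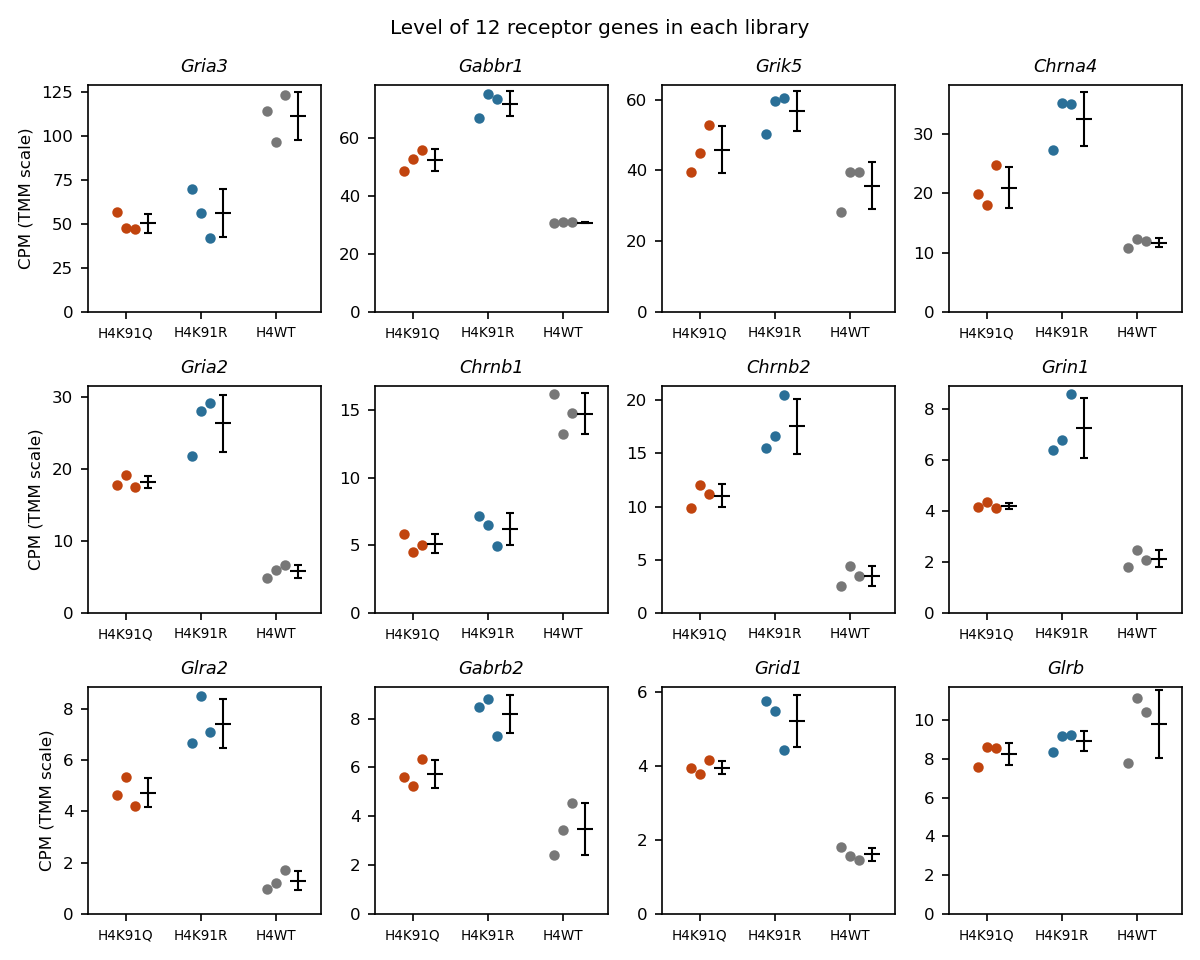
TMM-scaled CPM (vertical axes, each from 0 with its own range) of 12 receptor genes in each library, with H4K91Q, H4K91R and H4WT from left to right. Points are libraries, and bars give the mean and SD of 3 libraries; Gria3 and Chrnb1 are highest in H4WT, and the groups overlap for Glrb.

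Nicotinic receptors are pentamers. The alpha-4 and beta-2 subunits, from Chrna4 and Chrnb2, form the main high-affinity receptor of the brain, the products of Chrna3, Chrna5 and Chrnb4 form the ganglionic type, and Chrna7 encodes a subunit that forms receptors on its own. Muscle receptors contain the products of Chrna1, Chrnb1, Chrnd and either Chrng or Chrne. The neuronal pair rose. Chrna4 stood at 19.9, 18 and 24.7 CPM in the H4K91Q libraries, 27.2, 35.2 and 35 CPM in the H4K91R libraries and 10.8, 12.3 and 11.9 CPM in the H4WT libraries. The groups did not overlap, with H4K91R highest, and the changes were 0.82 ± 0.14 and 1.45 ± 0.14 (edgeR adjusted p = 0.000421 and 3.52e-06).

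Chrnb2 had 9.91, 12 and 11.2 CPM in the H4K91Q libraries, 15.5, 16.7 and 20.5 CPM in the H4K91R libraries and 2.53, 4.44 and 3.43 CPM in the H4WT libraries, again without overlap and with H4K91R highest. It rose by 1.56 ± 0.18 in H4K91Q and 2.23 ± 0.18 in H4K91R (edgeR adjusted p = 1.89e-05 and 8.87e-07). Exons of Adar, an RNA-editing enzyme gene on the opposite strand, cover 16.4% of the exonic length of Chrnb2. Adar averaged 62.6 CPM in H4K91Q, 64.5 CPM in H4K91R and 69.1 CPM in H4WT and passed in neither mutant, at -0.145 ± 0.0784 and -0.101 ± 0.0794. The part of reads from the shared exons in the values of Chrnb2 was not tested.

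Chrna3 had the largest fitted rise of all tested receptor genes in both mutants. It stood at 1.33, 1.84 and 1.82 CPM in the H4K91Q libraries, 2.13, 2.6 and 2.07 CPM in the H4K91R libraries and 0, 0.37 and 0.612 CPM in the H4WT libraries. All mutant libraries were above those of H4WT, and the changes were 2.24 ± 0.43 and 2.7 ± 0.43 (edgeR adjusted p = 0.000957 and 0.000211). The H4WT libraries held few counts of Chrna3, down to 0, so the size of the change is uncertain. Chrna5 had 1.59, 1.49 and 2.05 CPM in the H4K91Q libraries, 1.96, 2.99 and 2.17 CPM in the H4K91R libraries and 0.481, 0.704 and 0.98 CPM in the H4WT libraries. Its mutant libraries too were all above those of H4WT, and it rose by 1.24 ± 0.31 in H4K91Q and 1.71 ± 0.31 in H4K91R. Chrnb4 did not pass, at -0.46 ± 0.30 and 0.15 ± 0.30.

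Chrna7 passed in neither mutant. It had 1.29, 1.4 and 1.7 CPM in the H4K91Q libraries, 1.96, 1.81 and 1.48 CPM in the H4K91R libraries and 2.4, 1.44 and 1.96 CPM in the H4WT libraries. The groups overlapped, and the changes were -0.32 ± 0.26 in H4K91Q and -0.03 ± 0.27 in H4K91R, and the sign in H4K91R depended on the setting.

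Chrnb1, the beta subunit gene of the muscle receptor, was lower in both mutants. It stood at 5.88, 4.48 and 5.04 CPM in the H4K91Q libraries, 7.19, 6.53 and 4.92 CPM in the H4K91R libraries and 16.2, 13.3 and 14.8 CPM in the H4WT libraries. The lowest H4WT library was well above the highest mutant library. Chrnb1 fell by 1.5 ± 0.16 in H4K91Q and by 1.21 ± 0.16 in H4K91R (edgeR adjusted p = 7.42e-06 and 4.38e-05). Its share of the nicotinic level per exonic kilobase was 23.4% in H4K91Q, 20.2% in H4K91R and 59.5% in H4WT, and per coding kilobase 14.7% in H4K91Q, 12.3% in H4K91R and 47.3% in H4WT. Chrna4 held 42.8% in H4K91Q, 47.4% in H4K91R and 21.5% in H4WT per exonic kilobase.

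The other muscle subunit genes had too few counts to test, and Chrna1 averaged 0.483 CPM in H4K91Q, 0.331 CPM in H4K91R and 0.566 CPM in H4WT. Skeletal muscle markers summed to 25.5 to 32.5 CPM in H4K91Q, 19 to 24.5 CPM in H4K91R and 51.1 to 53.4 CPM in H4WT. Of 6 testable markers 2, Acta1 and Des, fell in each mutant, and the defining factors Myod1 and Myf6 had no count in any library, while Myog and Myf5 reached at most 0.122 and 0.12 CPM in a library. The smooth muscle and fibroblast sums given above were also lower in the mutants, as Chrnb1 and Gria3 were. Their part in these changes was not tested.

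Between the mutants the fitted differences of nearly all receptor genes had the same sign, although few passed. Of the 41, 38 had a lower fitted level in H4K91Q than in H4K91R and 3 a higher one, with a median log2 difference of -0.455, beside 0.00535 over all tested genes. In 6 genes the difference passed, always lower in H4K91Q, beside 2.78% lower, 2.37% higher and 5.16% in either direction over all tested genes. The log2 differences were -0.77 ± 0.16 for Grin1, -0.66 ± 0.15 for Chrnb2, -0.64 ± 0.17 for Glra2, -0.63 ± 0.13 for Chrna4, -0.53 ± 0.12 for Gria2 and -0.45 ± 0.08 for Gabbr1 (edgeR adjusted p = 0.0186, 0.0282, 0.0448, 0.0172, 0.0276 and 0.00628). In each of these genes every H4K91Q library lay below every H4K91R library and above every H4WT library. None of the differences was called at 2-fold or more, beside 0.935% of all tested genes higher and 0.0881% lower.

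No receptor gene was called higher in H4K91Q than in H4K91R by the edgeR test used throughout, by DESeq2 or by limma-voom. At an unadjusted p below 0.05 in that edgeR test, 1 was higher and 19 were lower, beside 10.9% and 11.4% of all tested genes. The libraries did not overlap for 20 receptor genes lower in H4K91Q, beside 12.8% of all tested genes, and for 1 higher, beside 12.5%. That gene, Grik1, was at 0.75 ± 0.24 (edgeR adjusted p = 0.0889), and edgeR called it with no filter on low counts and with the replicate block. Of the 6 calls, that of Gabbr1 was kept under all alternatives run. Leaving out H4K91R replicate 2, H4K91Q replicate 1 or H4K91Q replicate 2 left 1 call, and leaving out H4K91R replicate 3 left 2.

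Marker genes also differed between the mutants. Of the 21 pan-neuronal markers, 11 were lower in H4K91Q than in H4K91R and 0 higher, with a median of -0.461. Pluripotent stem cell markers went the other way, with 7 of 10 higher in H4K91Q and sums of 422 to 554 CPM in H4K91Q, 293 to 305 CPM in H4K91R and 394 to 480 CPM in H4WT. Against H4WT, 6 rose and 2 fell of these 10 in H4K91Q and 1 rose and 8 fell in H4K91R. The part of either list in the receptor differences was not tested.

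**Figure D5:**
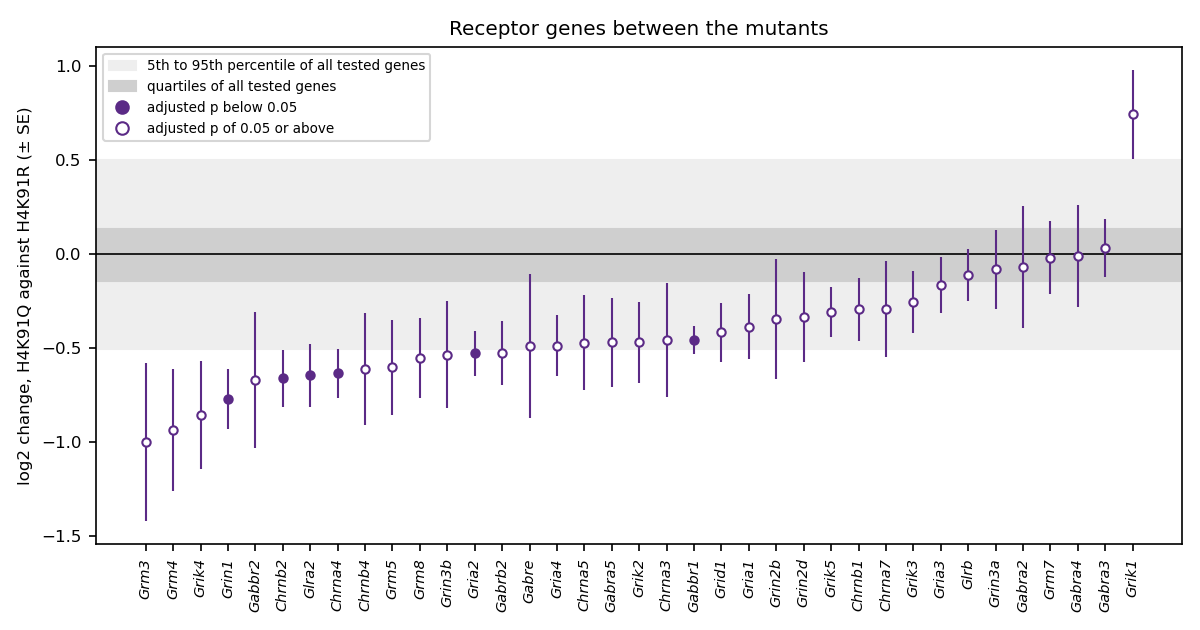
Log2 change of H4K91Q against H4K91R with its SE for 37 of the tested receptor genes. Filled points passed an adjusted p below 0.05; the shaded bands hold the quartiles (-0.14 to 0.136) and the 5th to 95th percentiles (-0.502 to 0.501) of all 14761 tested genes.

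Many receptor genes sit in clusters. With gaps under 1000000 bases, 27 of the 68 lay in 10 groups (coordinates from RefSeq, GRCm38.p6). On chromosome 3, Gria2 rose and its neighbour Glrb, 39371 bases away, passed in neither mutant. On chromosome 9 between 54980827 and 55048953, Chrna5 and Chrna3 rose and Chrnb4 did not pass. The annotated spans of Chrna5 and Chrna3 overlap at their ends, and the part of shared reads in their values was not tested. On chromosome 5, Gabra2 rose and Gabra4, 473885 bases away, did not pass.

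The 27 receptor genes with too few counts to test include the rho class of GABA-A genes (Gabrr1, Gabrr2, Gabrr3) and Gabra6, Gabrb1, Gabrd, Gabrg1, Gabrg3, Gabrp and Gabrq. Others are Glra1, Glra3, Glra4, Grin2a, Grin2c, Grm2 and Grm6, and the nicotinic genes Chrna1, Chrna2, Chrna6, Chrna9, Chrna10, Chrnb3, Chrnd, Chrne and Chrng. Gabra6, an alpha gene of cerebellar granule cells, and Chrna6, a nicotinic gene of dopamine neurons, had no count in any of the 9 libraries. Gabrg1 had 0.557, 0.249 and 0.527 CPM in the H4K91Q libraries, 0.978, 0.472 and 0.689 CPM in the H4K91R libraries and 0, 0.222 and 0.245 CPM in the H4WT libraries. These levels rest on 0 to 17 counts per library.

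Genes that assemble, transport or anchor these receptors were listed by function. Of 35 testable auxiliary and trafficking genes of glutamate receptors, 18 rose and 4 fell in H4K91Q and 21 rose and 2 fell in H4K91R, with median log2 changes of 0.785 and 0.957. The whole list summed to 444 to 489 CPM in H4K91Q, 549 to 576 CPM in H4K91R and 370 to 408 CPM in H4WT. Cnih2, an AMPA receptor export factor, averaged 15.2 CPM in H4K91Q, 23.7 CPM in H4K91R and 6.29 CPM in H4WT and rose by 1.84 ± 0.15 in H4K91R. Shisa7, a receptor-associated membrane protein, averaged 6.39 CPM in H4K91Q, 11.3 CPM in H4K91R and 2.42 CPM in H4WT and rose by 2.2 ± 0.16 in H4K91R. Neto2, an auxiliary subunit of kainate receptors, averaged 39.1 CPM in H4K91Q, 43.7 CPM in H4K91R and 19.3 CPM in H4WT and rose by 1.04 ± 0.10 in H4K91Q. Shisa6, of the same list, went the other way and averaged 1.68 CPM in H4K91Q, 1.89 CPM in H4K91R and 4.77 CPM in H4WT. Its changes were -1.47 ± 0.24 in H4K91Q and -1.26 ± 0.25 in H4K91R (edgeR adjusted p = 0.000274 and 0.00111). Between the mutants 1 gene was higher and 5 were lower in H4K91Q, among them Shisa7.

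Of 33 testable excitatory postsynaptic scaffold genes, 19 rose and 7 fell in H4K91Q and 20 rose and 3 fell in H4K91R, with medians of 0.367 and 0.607. The summed level of the whole list was not higher in H4K91Q than in H4WT. It was 1320 to 1552 CPM in H4K91Q, 1554 to 1655 CPM in H4K91R and 1433 to 1573 CPM in H4WT. Lrrc4b, a leucine-rich repeat adhesion protein of the synapse, averaged 18.8 CPM in H4K91Q, 32.8 CPM in H4K91R and 5.38 CPM in H4WT and was lower in H4K91Q than in H4K91R, at -0.80 ± 0.15 (edgeR adjusted p = 0.0137). Dlgap3, which links PSD-95 to Shank proteins, averaged 14.8 CPM in H4K91Q, 21.4 CPM in H4K91R and 4.04 CPM in H4WT. Shank1, a scaffold of the postsynaptic density, averaged 6.9 CPM in H4K91Q, 13.7 CPM in H4K91R and 2.87 CPM in H4WT and was lower in H4K91Q than in H4K91R, at -1.0 ± 0.17 (edgeR adjusted p = 0.00745). Camk2d, a subunit gene of the kinase CaMKII, fell in both mutants and averaged 39.7 CPM in H4K91Q, 41 CPM in H4K91R and 63.1 CPM in H4WT.

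Of 24 testable inhibitory scaffold and GABA receptor partner genes, 13 rose and 5 fell in H4K91Q and 14 rose and 4 fell in H4K91R, with medians of 0.472 and 0.57. The whole list summed to 2312 to 2473 CPM in H4K91Q, 2395 to 2466 CPM in H4K91R and 1897 to 1933 CPM in H4WT. Lhfpl4, which anchors GABA-A receptors at inhibitory synapses, averaged 15.5 CPM in H4K91Q, 23.9 CPM in H4K91R and 4.38 CPM in H4WT. Slc12a5, the chloride exporter KCC2 that makes GABA hyperpolarising, averaged 11.8 CPM in H4K91Q, 18.9 CPM in H4K91R and 5.05 CPM in H4WT.

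Of 13 testable genes for assembly and anchoring of nicotinic receptors, 5 rose and 1 fell in H4K91Q and 6 rose and 0 fell in H4K91R, with medians of 0.317 and 0.482. The whole list summed to 602 to 692 CPM in H4K91Q, 703 to 749 CPM in H4K91R and 611 to 668 CPM in H4WT. Ly6h, a modulator of nicotinic receptors, rose by 2.31 ± 0.19 and 2.56 ± 0.19 and averaged 58.8 CPM in H4K91Q, 70.1 CPM in H4K91R and 10.9 CPM in H4WT. Rapsn, Musk and Dok7, which build the neuromuscular junction, had too few counts to test. Of 5 testable motor and cholinergic neuron markers, 0 rose and 1 fell in H4K91Q and 2 rose and 1 fell in H4K91R. The gene that fell in both was Slc5a7, the choline transporter of cholinergic neurons, which averaged 9.23 CPM in H4K91Q, 9.0 CPM in H4K91R and 61.9 CPM in H4WT, and the cholinergic genes Chat and Slc18a3 had too few counts to test.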

How the data were processed

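RNA was isolated with an RNeasy kit and sequenced from NEBNext Ultra II libraries, per the labels' protocols. The authors deposited expected counts per gene, all of them whole numbers; the submitters' processing notes name Salmon 0.8.2, mm10 and DESeq2 without their roles. The annotation and the strand setting of the counting could not be found in the labels or headers. RefSeq for GRCm38.p6 gave symbols to 24045 of 24100 gene IDs, and coordinates and promoters; exonic and coding lengths came from GENCODE M21.

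Genes were filtered with filterByExpr (minimum count 10) in edgeR 4.0.16 (R 4.3.3), libraries were scaled by TMM (factors 0.911 to 1.06), and 1 quasi-likelihood model was fitted to all 9 libraries (biological coefficient of variation 8.82%). Tests were two-sided, with Benjamini-Hochberg adjustment over 14761 genes and a threshold of 0.05. The same fit was also run on simulated counts, whose spread was taken from the fit to these data. Changes are log2, with SEs from the F statistic. Libraries correlated at 0.992 to 0.995 within groups.

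Same-numbered libraries of H4K91Q and H4WT deviated together across genes (r = 0.27, 0.274 and 0.234), but the labels name no pairs. In the other comparisons r of same-numbered libraries was between -0.259 and 0.246. Differently numbered libraries gave r from -0.317 to 0.0313 in H4K91Q against H4WT and from -0.382 to 0.388 over all comparisons. Pairing was thus not settled. The main model treated all libraries as unpaired, and the replicate block was run only as an alternative.

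The receptor genes, 4 lists of partner genes and 12 marker lists were chosen with earlier results of these data known. Counts and medians cover all receptor genes, of which 5 are not reported here by name. With these left out, values per library are given for the 8 largest increases and up to 6 decreases called per mutant with a mean of at least 1 CPM, those called between the mutants, the 2 highest per kilobase in each family, and the 4 most abundant that passed in neither mutant, and for Gabrg1, chosen after its values were seen. From the lists, genes with values came from the 3 called genes of at least 1 CPM with the smallest adjusted p in either mutant. Vim, Shisa6, untested genes and genes without values were named after their values were seen. Alternatives were RLE, library size and upper quartile scaling, no filter, a minimum count of 30, DESeq2 1.42.0, limma-voom (limma 3.58.1), a replicate block, the compared groups only, leaving out each library, and coding length.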

Additional observations from a re-analysis of the deposited data

Results flagged for a closer look

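The effects of the 2 mutants against H4WT differed for 6 receptor genes in the direct test of H4K91Q against H4K91R (edgeR quasi-likelihood test, log2 change). The values were -0.455 for Gabbr1, -0.77 for Grin1, -0.661 for Chrnb2, -0.643 for Glra2, -0.633 for Chrna4 and -0.528 for Gria2. These 6 genes rose in both mutants, by less in H4K91Q. All 3 H4K91Q libraries lay below all 3 H4K91R libraries for each. Without H4K91R replicate 2, H4K91Q replicate 1 or H4K91Q replicate 2, 1 of these calls was left, and without H4K91R replicate 3, 2 were left. Gabbr1 kept its call under every alternative run.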

How the results depend on the processing

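Of the calls against H4WT, 20 of 26 in H4K91Q and 27 of 33 in H4K91R were kept in each alternative that tested the gene, and 1 of 6 between the mutants. Leaving out 1 library at a time gave 20 to 24 higher and 3 to 4 lower receptor genes in H4K91Q against H4WT, 27 to 30 higher and 3 to 4 lower in H4K91R against H4WT, and 0 higher and 1 to 6 lower in H4K91Q against H4K91R, with fewer libraries in each fit. With the replicate block, 25 receptor genes were higher and 3 lower in H4K91Q and 29 higher and 4 lower in H4K91R; beyond Grik2 and Grik5 the block changed no call against H4WT. Between the mutants 1 gene, Grik1, was called higher with no filter, with the replicate block, and with a block in a fit of the compared groups only, an alternative chosen after seeing the data, beside 6, 8 and 6 lower; the cause was not tested. The sign changed only where no call was made under either setting, and the cause was not tested. In H4K91Q against H4WT, Grik1 was at 0.152 with library size scaling, 0.105 with upper quartile scaling, 0.021 with DESeq2, 0.032 with the replicate block and 0.049 with the block and the compared groups only. In H4K91R against H4WT, Chrna7 was at 0.00114 with RLE, 0.151 with library size, 0.078 with upper quartile scaling, 0.041 with limma-voom and 0.00133 with the compared groups only. Grin2d was at -0.016 with limma-voom, -0.021 with the replicate block and -0.000852 with the block and the compared groups only, and Glrb at 0.016 with library size scaling. Leaving out libraries put Grik1 at -0.167 to 0.277 in H4K91Q, and Gabre at -0.702 to 0.078, Grin2d at -0.151 to 0.254, Grin3b at -0.026 to 0.280 and Chrna7 at -0.292 to 0.146 in H4K91R. Genes near 1 CPM rest on few counts in the shallower libraries, 2 of which are H4WT libraries. Protein features were not computed.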
